A study of Mus musculus with 13 samples.

Results

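The measurements come from B3, a mouse pre-B cell line, in which the DNA-binding protein Ikaros was switched on for 6 h. Cells had been transduced with a mouse stem cell retrovirus that carries haemagglutinin-tagged Ikaros fused to ERt2, a ligand-binding domain of an estrogen receptor, followed by an internal ribosome entry site and GFP (Ikaros-ERt2, 3 arrays). Control cells carried ERt2-IRES-GFP without Ikaros (vector-ERt2, 3 arrays). Both lines received 4-hydroxytamoxifen, the ligand of the fusion, for 6 h. These 6 of the series' 13 arrays were compared over all probe sets of the Affymetrix Mouse Gene 1.0 ST array that carry 1 gene symbol, which covers 21789 of 35556 probe sets and 19938 genes. The other arrays used are 3 of the same type from Ikaros-ERt2 cells after 2 h of 4-hydroxytamoxifen, and 4 of another type from B3 cells 48 h after transduction with Ikaros or with 159A, a mutant deficient in DNA binding. No array of Ikaros-ERt2 cells without 4-hydroxytamoxifen was analysed here, so responses to the ligand cannot be told apart from differences that these lines already had without it. The submitters call the samples biological replicates without naming separate cultures, and p-values therefore rest on the spread among these arrays, which may be technical.

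Ikaros is a zinc-finger protein of lymphoid development that binds DNA elements around the letters GGGAA, and it works with chromatin-remodelling complexes both to repress and to activate genes. Large pre-B cells divide under the pre-B cell receptor, made of an immunoglobulin heavy chain and the surrogate light chain, and under interleukin-7. Their passage to resting small pre-B cells goes with loss of the surrogate light chain, lower Myc activity, which drives ribosome production, and rearrangement of the light chain genes.

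Ikzf1, which encodes Ikaros, read 13.31, 13.22 and 13.25 in Ikaros-ERt2 replicates 1 to 3 and 9.16, 9.25 and 9.39 in vector-ERt2 replicates 1 to 3. These are log2 values, as are all levels given for single arrays, so that a difference of 1 is a 2-fold change. The groups lay far apart, and the difference was 15.9-fold (log2 difference 3.99 ± 0.08, SE, adjusted p = 3.96e-10, limma over all genes tested). Ikaros-ERt2 cells carry the retroviral Ikaros sequence, so a difference was set by the design. Whether the cells' own Ikzf1 changed was not tested. The title of vector-ERt2 replicate 1 names the vector while another of its label fields names inducible Ikaros, and its Ikzf1 value was the lowest of the 3 vector arrays. Of 13 markers of pre-B cells, 12 were on the array and 9 lay above the level for testing. The B-lineage factor genes Pax5 (9.02 ± 0.06 in Ikaros-ERt2 and 8.97 ± 0.07 in vector-ERt2, mean ± SD, n = 3 each) and Ebf1 (10.21 ± 0.12 and 9.89 ± 0.15) were among these 9. Of the 9, 3 were called (Vpreb1, Igll1 and Blnk, all lower), beside 3.2% of all genes called lower. Rag1, Rag2 and Dntt lay below the level for testing in both groups. The mean over the pre-B markers on an array lay between 8.23 and 8.31 in Ikaros-ERt2 and between 8.47 and 8.57 in vector-ERt2 cells. Of defining markers of other cells, 1 T cell, 1 natural killer and 3 fibroblast markers lay above this level, and 0 myeloid or erythroid ones did. Of these, limma called 0 between the groups, beside 5.78% of all genes called. The mean level of the T cell markers lay at 4.65 to 4.76 in Ikaros-ERt2 and 4.70 to 4.79 in vector-ERt2 arrays.

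Of 11963 genes tested, 692 (5.78%) were called at an adjusted p under 0.05, 309 higher (2.58%) and 383 lower (3.2%) in Ikaros-ERt2 cells. Most changes were small: 232 of the higher and 240 of the lower genes differed by less than 1.5-fold, and the median fold was 1.37 for the higher and 1.43 for the lower genes. Changes of at least 2-fold were called for 35 genes (0.293%), 6 higher and 29 lower. The counts of higher genes include Ikzf1. In all 692 called genes the 3 Ikaros-ERt2 arrays did not overlap the 3 vector-ERt2 arrays, which held for 21.3% of all genes tested. Leaving out 1 array lowered the 692 calls to 335 (vector-ERt2 replicate 1), 423 (vector-ERt2 replicate 2), 412 (vector-ERt2 replicate 3) and 359 (Ikaros-ERt2 6 h replicate 1). The higher genes then numbered 125 without Ikaros-ERt2 6 h replicate 1, 193 without Ikaros-ERt2 6 h replicate 2, and 128, 144 and 173 without vector-ERt2 replicates 1, 2 and 3. The lower genes numbered 234 without Ikaros-ERt2 6 h replicate 1, and 207 and 239 without vector-ERt2 replicates 1 and 3.

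**Figure D1:**
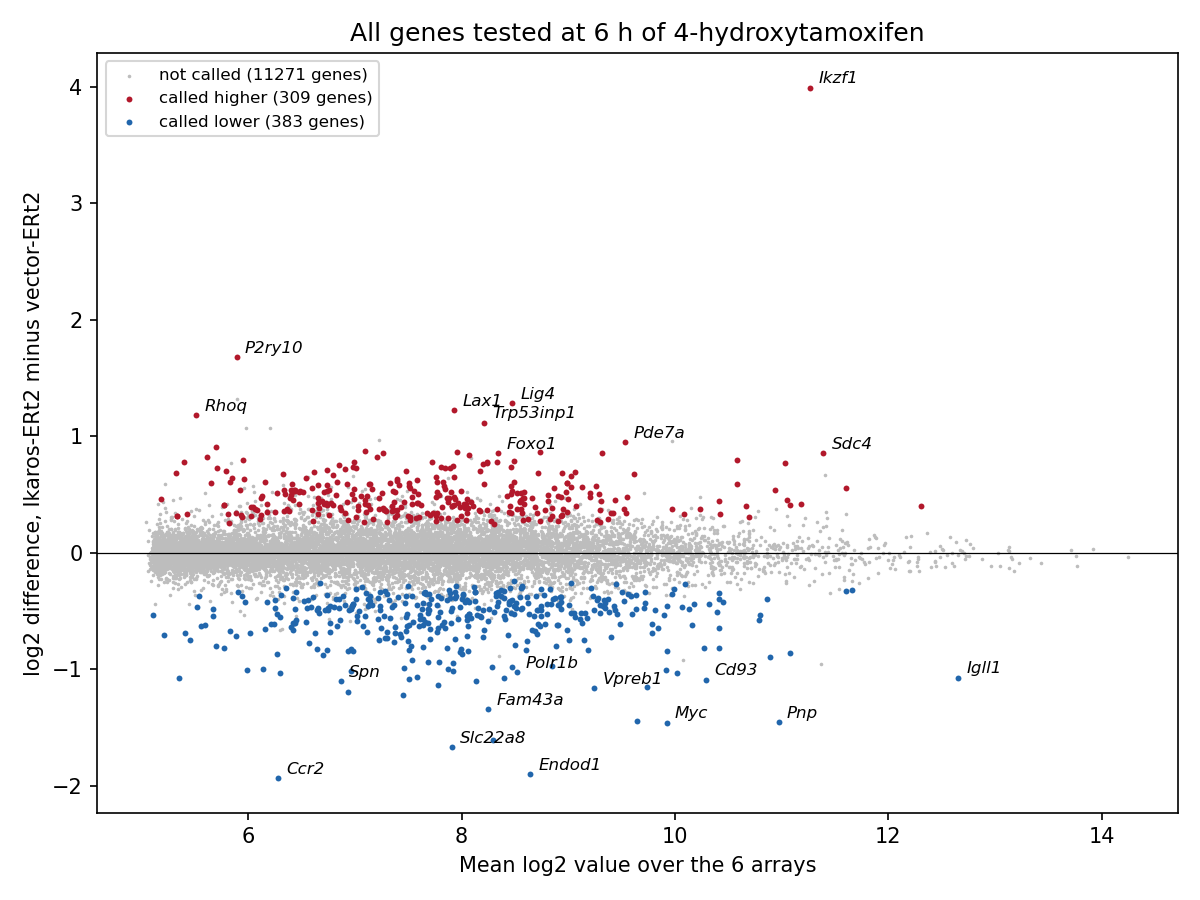
Each point is 1 of 11963 genes, with its mean log2 value over the 6 arrays on the x axis and the log2 difference, Ikaros-ERt2 minus vector-ERt2, at 6 h on the y axis. The 309 genes called higher are red, the 383 called lower are blue and Ikzf1 stands alone at 3.99.

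Myc, the transcription factor that drives cell growth and ribosome production, read 9.02, 9.15 and 9.40 in the Ikaros-ERt2 arrays and 10.56, 10.56 and 10.84 in the vector arrays. Every Ikaros-ERt2 array lay below every vector array, and Myc was 2.75-fold lower (log2 difference -1.46 ± 0.15, SE, adjusted p = 0.000437). Of 12 tested genes of Myc and its partner proteins, Myc was the 1 called (8.33%, beside 5.78% of all genes called).

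Genes for the making of ribosomes were lower in large part. Of 101 tested genes for ribosomal RNA processing and ribosome assembly, limma called 42 lower and 0 higher (78 and 0 at an unadjusted p under 0.05), beside 3.2% of all genes called lower. The difference was negative in 100 of the 101, beside 50.1% of all genes tested, and Utp3 was the exception at 0.15. The median log2 difference was -0.33, beside 0.00 over all genes tested, and in 76 of the 101 all Ikaros-ERt2 arrays lay below all vector arrays, beside 10.3% of all genes tested. With vector-ERt2 replicate 1 left out 20 were called lower, with vector-ERt2 replicate 3 left out 27, and with Ikaros-ERt2 6 h replicate 1 left out 24.

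Rrs1, a factor of large-subunit assembly, read 7.45, 7.86 and 7.35 in Ikaros-ERt2 cells and 8.49, 8.31 and 8.41 in vector cells. The groups did not overlap, and Rrs1 had the largest fall of the list (1.81-fold, log2 difference -0.85 ± 0.13, SE, adjusted p = 0.00277). Grwd1 (log2 difference -0.75), a ribosome assembly chaperone, Rrp1b (-0.73) and the nucleolar GTPase gene Gnl3 (-0.73) followed it. Mdn1, which encodes the giant AAA-ATPase that strips factors from the maturing large subunit and was chosen after its value was seen, differed by -0.63.

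Some proteins of small nucleolar ribonucleoproteins, which guide chemical modification of ribosomal RNA, were among the called genes, while Nhp2 (log2 difference -0.38), a core protein of the box H/ACA class named after its value was seen, was not. Dkc1, the pseudouridine synthase of the box H/ACA class, read 9.51, 9.61 and 9.19 against 10.26, 10.10 and 10.01. The Ikaros-ERt2 arrays all lay lower, by 1.61-fold (log2 difference -0.69 ± 0.11, SE, adjusted p = 0.00526). For the box C/D class, Nop58 (log2 difference -0.44) and Nop56 (-0.40) fell by less. Nolc1, a chaperone of these particles in the nucleolus, read 8.75, 8.42 and 8.58 against 9.18, 9.20 and 9.23, a log2 difference of -0.62 ± 0.09 (SE, adjusted p = 0.00298). Nat10, the RNA cytidine acetyltransferase, gave 8.33, 8.32 and 8.33 against 9.06, 8.94 and 8.99, a difference of -0.67 with little spread in either group. These last 4 genes were chosen after their values were seen.

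RNA polymerase I makes ribosomal RNA and RNA polymerase III makes 5S and transfer RNA. Polr1b, the second largest subunit of polymerase I, read 7.96, 7.99 and 8.06 in Ikaros-ERt2 cells and 9.07, 8.98 and 9.05 in vector cells. Both groups were tight and well apart (2.04-fold lower, log2 difference -1.03 ± 0.08, SE, adjusted p = 0.00012). Gtf3c5, a subunit of the polymerase III factor TFIIIC, read 9.11, 9.45 and 8.92 against 10.36, 10.35 and 10.24 and was 2.22-fold lower (log2 difference -1.15 ± 0.12, SE, adjusted p = 0.000482). Polr1a (-0.49), the largest subunit of polymerase I, and Polr3e (-0.39) fell too. These 4 of 37 tested genes were called lower by limma and 0 higher (10 and 0 at an unadjusted p under 0.05). The 4 are 10.8% of the list, beside 3.2% of all genes called lower.

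Of 59 tested genes of cytosolic ribosomal proteins, 0 were called by limma (3 lower and 0 higher at an unadjusted p under 0.05), with a median log2 difference of -0.08. Of these, 52 were negative, beside 50.1% of all genes tested, and in 11 all Ikaros-ERt2 arrays lay lower, beside 10.3% of all genes tested. The gene nearest to a call was Rpl12, at 7.19, 7.21 and 6.80 in Ikaros-ERt2 cells and 7.95, 7.68 and 7.44 in vector cells (log2 difference -0.62 ± 0.16, SE, adjusted p = 0.0502). Of 78 mitochondrial ribosomal protein genes, 3 were called lower (Mrpl24 at -0.56, Mrpl52 at -0.50 and Mrps34 at -0.48) and 0 higher (10 and 0 at an unadjusted p under 0.05). The 3 are 3.85% of the list, near the 3.2% of all genes called lower. Of 43 translation factor genes, 3 were called lower and 1 higher, Eef2k (0.43), the kinase that inhibits elongation factor 2, a call lost in 8 of 19 alternatives. Together these calls are 9.3% of the list, beside 5.78% of all genes called. Of 20 cytosolic tRNA synthetase genes, 0 were called by limma (2 lower at an unadjusted p under 0.05), and 17 differences were negative, beside 50.1% of all genes tested. Of the 3 lower translation factors, 0 were called when replicate 1 of either 6 h group was left out, and 1 when vector-ERt2 replicate 2 or 3, Ikaros-ERt2 6 h replicate 3 or Ikaros-ERt2 2 h replicate 1 was.

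**Figure D2:**
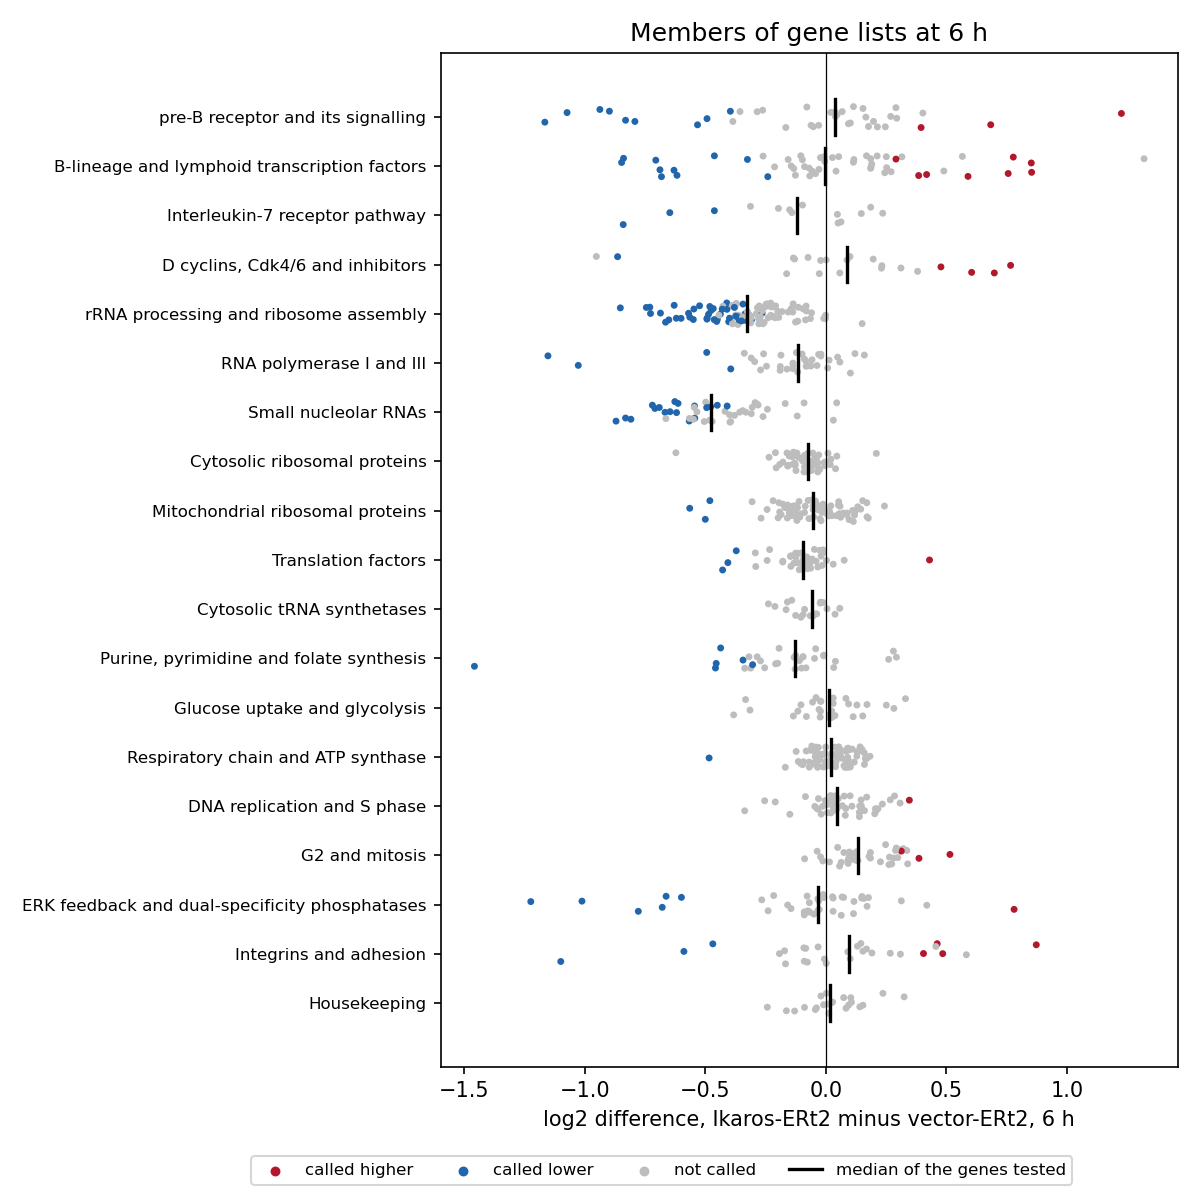
Each point is 1 tested gene, placed by its log2 difference, Ikaros-ERt2 minus vector-ERt2, at 6 h (x axis) and by gene list (y axis), with a black bar at the list's median. Ribosome assembly genes have their median at -0.33 and small nucleolar RNAs at -0.48, while cytosolic ribosomal protein genes have theirs at -0.08 and housekeeping genes at 0.02.

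Small nucleolar RNAs, most of which lie in introns of other genes and guide the modification of ribosomal RNA, were lower as well. Of 54 on the array, 47 lay above the level for testing, of which limma called 18 lower and 0 higher (37 and 0 at an unadjusted p under 0.05). The 18 are 38.3% of those tested, beside 3.2% of all genes called lower. The median log2 difference was -0.48, and 45 of 47 were negative, beside 50.1% of all genes tested. Snora75 read 7.10, 7.48 and 7.12 in Ikaros-ERt2 cells and 8.22, 8.04 and 7.87 in vector cells. The groups did not overlap, and Snora75 was 1.75-fold lower (log2 difference -0.81 ± 0.13, SE, adjusted p = 0.00365). Snord35b (-0.87) and Snord82 (-0.83) had the largest falls, with more spread between arrays, and the call of Snord82 was lost in 8 of 19 alternatives. The count of 18 fell to 2, 5 and 10 on leaving out vector-ERt2 replicates 1, 2 and 3 in turn, and to 6 and 10 on leaving out Ikaros-ERt2 6 h replicates 1 and 3. Testing every gene regardless of level gave 11, and a fit of the 6 arrays alone gave 7.

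The genes in which they lie moved less. For 26 tested small nucleolar RNAs, 1 tested gene spans the RNA (22 different genes, 10 of them for ribosomal proteins). The median log2 difference was -0.49 for these RNAs and -0.06 for the spanning genes, and the RNA lay below its spanning gene in 24 of 26 pairs. Of the spanning genes, 3 were called lower (Ncl, Wdr43 and Nop56) and 0 higher. Snora33 read 6.64, 6.88 and 6.57 against 7.18, 7.14 and 7.25 (log2 difference -0.49, adjusted p = 0.00787), while Rps12, a ribosomal protein gene that spans it, read 12.19, 12.27 and 12.24 against 12.31, 12.38 and 12.24 (log2 difference -0.08, adjusted p = 0.658). Snora41, whose Ikaros-ERt2 mean of 4.85 lay below the level for testing, gave a difference of -0.71, while Eef1b2, an elongation factor gene that spans it, gave -0.03. Snora33, Rps12 and Eef1b2 were chosen after their values were seen. Whether the probe sets of the small nucleolar RNAs read the mature RNA or unspliced transcript of the spanning gene was not tested. A spanning gene's value comes from the probe set kept for its symbol. Whether that probe set lies at the locus holding the small nucleolar RNA was not tested.

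**Figure D3:**
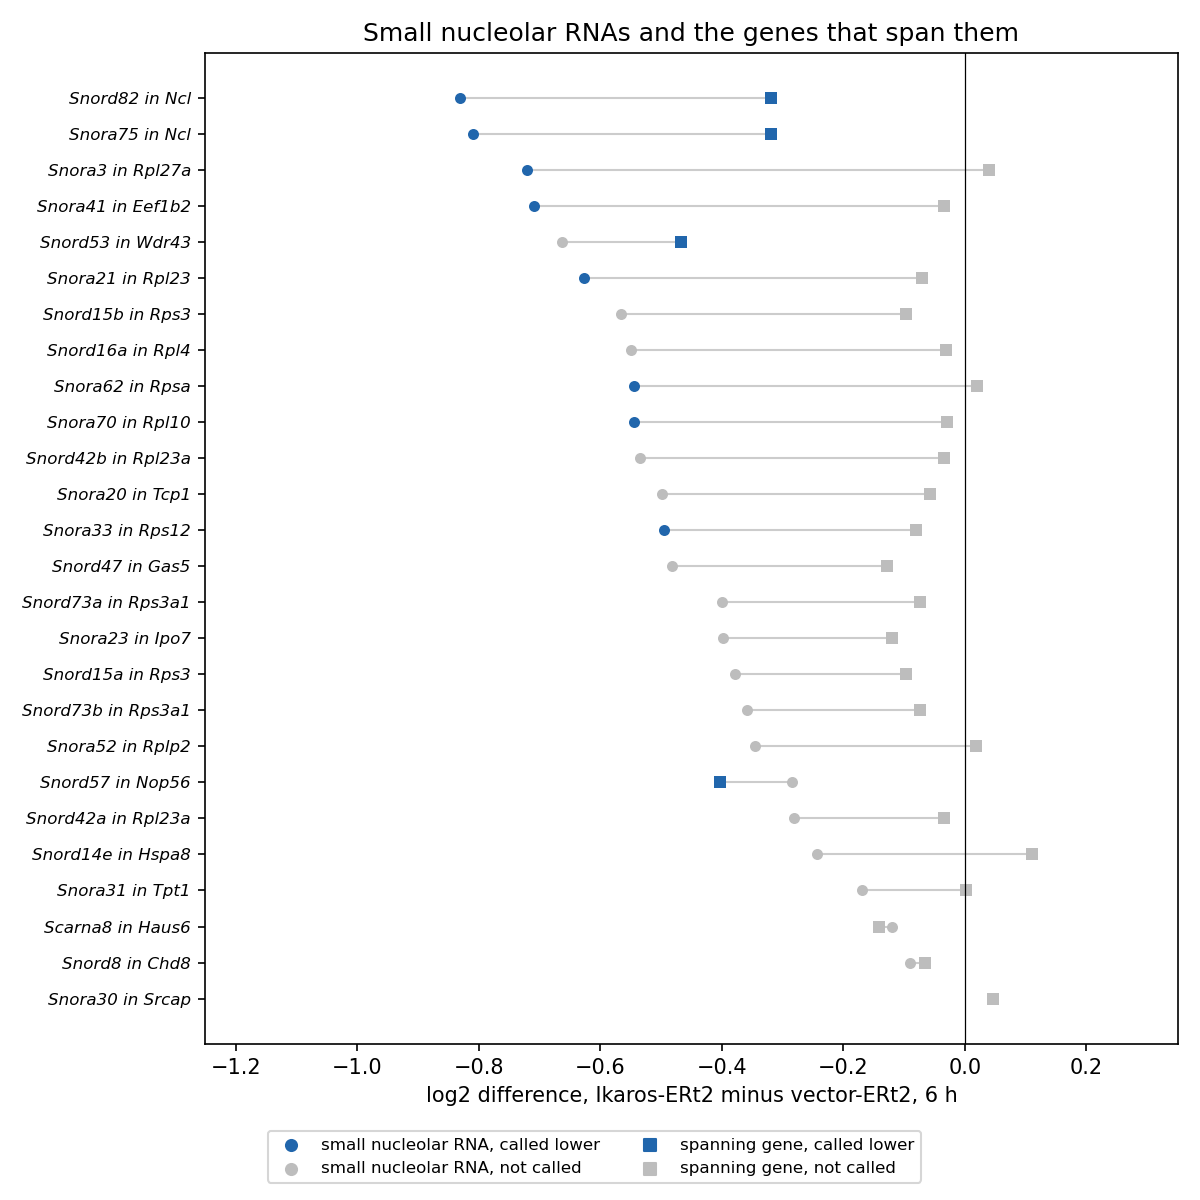
Each row is a small nucleolar RNA (circle) and the gene that spans it (square), placed by log2 difference, Ikaros-ERt2 minus vector-ERt2, at 6 h (x axis). Blue marks a gene called lower and grey a gene not called. In 24 of 26 rows the circle lies left of the square.

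Supply of nucleotides and polyamines showed single large falls. Pnp, purine nucleoside phosphorylase of purine salvage, read 10.26, 10.43 and 10.04 in Ikaros-ERt2 cells and 11.88, 11.72 and 11.51 in vector cells, with no overlap (2.75-fold lower, log2 difference -1.46 ± 0.12, SE, adjusted p = 0.00012). Of 32 tested genes of purine, pyrimidine and folate synthesis, 6 were called lower and 0 higher by limma (13 and 3 at an unadjusted p under 0.05). The 6 are 18.75% of the list, beside 3.2% of all genes called lower. The others were Shmt1 (-0.46), Uck2 (-0.46), Ppat (-0.44), the first enzyme of purine synthesis, Atic (-0.34) and Pfas (-0.30). The count was 2 without vector-ERt2 replicate 1 or replicate 3. Srm, spermidine synthase, read 10.03, 9.70 and 9.85 against 10.64, 10.52 and 10.88 (log2 difference -0.82 ± 0.11, SE, adjusted p = 0.00164), the 1 called of 11 polyamine genes (9.09%, beside 5.78% of all genes called). Of 31 tested genes of glucose uptake and glycolysis, 0 were called by limma (3 higher and 3 lower at an unadjusted p under 0.05), and of 87 genes of the respiratory chain and ATP synthase, Ndufaf4 (-0.48) was the 1 called, and in 8 of 19 alternatives this call was lost.

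The surrogate light chain of the pre-B cell receptor fell in all its parts on the array. Vpreb1 read 8.56, 8.88 and 8.53 in Ikaros-ERt2 cells and 9.98, 9.71 and 9.79 in vector cells. The groups lay apart, at a 2.24-fold lower level (log2 difference -1.17 ± 0.11, SE, adjusted p = 0.0003). Igll1, which encodes lambda5, read 12.19, 12.37 and 11.80 against 13.22, 13.15 and 13.21 (2.11-fold lower, adjusted p = 0.000776), with the Ikaros-ERt2 arrays more spread than the vector arrays. Vpreb2, chosen after its value was seen, read 8.01, 8.23 and 8.06 against 9.08, 8.89 and 8.70 (log2 difference -0.79 ± 0.10, SE, adjusted p = 0.00154). Vpreb1 and Vpreb2 are near-identical copies, so how far each probe set reads its own gene is uncertain. The signalling chains Cd79a (log2 difference -0.17, adjusted p = 0.336) and Cd79b (0.29, adjusted p = 0.0636), also chosen after their values were seen, were not called.

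Of single genes downstream of the receptor, some were lower and some higher. Blnk, the adaptor that links the kinase Syk to phospholipase C, read 7.16, 7.35 and 7.15 against 7.94, 8.02 and 8.51. No arrays overlapped, and Blnk was 1.92-fold lower (log2 difference -0.94 ± 0.15, SE, adjusted p = 0.00373). Pik3ap1, the adaptor BCAP that recruits phosphoinositide 3-kinase, differed by -0.90. Of genes chosen after their values were seen, the inhibitory adaptor gene Dok2 (-0.83), the inositol phosphatase gene Inpp5d (-0.53), the tyrosine phosphatase gene Ptpn6 (-0.49) and Plcg2 (-0.40) were called lower. Lax1, an adaptor that dampens antigen receptor signalling, was higher: 8.88, 8.90 and 7.85 against 7.51, 7.54 and 6.91. Replicate 3 of each group was the lowest of its group, and the call of Lax1 (log2 difference 1.23 ± 0.25, SE, adjusted p = 0.0168) was lost in 5 of 19 alternatives. The inhibitory Fc receptor gene Fcgr2b (0.68) and Malt1 (0.39), chosen after their values were seen, were also called higher, Malt1 in 7 of the 19 alternatives. The vector mean of Fcgr2b, 4.97, lay below the level for testing. Of 39 tested genes of the receptor and its signalling, 9 were thus lower and 3 higher, with a median of 0.04 (30.8% called, beside 5.78% of all genes). Leaving out vector-ERt2 replicate 1 or 3, or Ikaros-ERt2 6 h replicate 1, left 1 of the 3.

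The interleukin-7 receptor pathway, which supports pre-B cell growth, had 3 of 14 tested genes called lower and 0 higher by limma (4 and 1 at an unadjusted p under 0.05). The 3 are 21.4% of the list, beside 3.2% of all genes called lower. Il7r, the receptor's alpha chain, read 9.38, 9.35 and 9.79 against 10.25, 10.11 and 10.68 (1.79-fold lower, log2 difference -0.84 ± 0.16, SE, adjusted p = 0.00998). Jak1, a kinase bound to it, was lower with little spread, at 10.06, 10.10 and 10.09 against 10.66, 10.69 and 10.84 (log2 difference -0.65 ± 0.08, SE, adjusted p = 0.00099). Stat5a (-0.46), the factor it activates, was called too. Of 15 genes of the Bcl2 family, Bcl2l11, which encodes the death-promoting protein Bim, was the 1 called, at 7.20, 7.17 and 7.0 against 6.50, 6.40 and 6.47 (log2 difference 0.66 ± 0.09, SE, adjusted p = 0.0015). This 1 call is 6.67% of the list, near the 5.78% of all genes called.

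Among genes of the G1 phase, Cdk6 was called lower, and several inhibitors of the cycle were called higher. Cdk6, the kinase partner of D cyclins, read 10.70, 10.48 and 10.75 against 11.44, 11.42 and 11.67 (1.82-fold lower, log2 difference -0.86 ± 0.13, SE, adjusted p = 0.00301). Rb1, the retinoblastoma protein gene, read 8.57, 8.63 and 8.36 against 7.91, 7.86 and 7.69 (log2 difference 0.70 ± 0.09, SE, adjusted p = 0.00139). Ccng2, a cyclin linked to cell cycle arrest, read 8.46, 8.86 and 8.54 against 7.94, 7.73 and 7.88 (log2 difference 0.77 ± 0.11, SE, adjusted p = 0.00201). The inhibitor genes Cdkn2c (0.60) and Cdkn1b (0.48), for p18 and p27, were called higher. Of 21 tested genes of this list, 4 were called higher and 1 lower (23.8% called, beside 5.78% of all genes). At an unadjusted p under 0.05 (limma), 8 were higher and 2 lower. Of the 21 differences, 8 were negative, with a median of 0.09. The lowest, -0.95, belonged to a gene not called.

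Genes of later cell cycle phases were read as lists of S phase and of G2 and mitosis. Of 51 tested S phase genes, Ccne2 (0.35) was called higher and 0 lower by limma (10 and 3 at an unadjusted p under 0.05). This 1 call is 1.96% of the list, beside 2.58% of all genes called higher. Of the 51 differences, 12 were negative, beside 50.1% of all genes tested. The call of Ccne2 was lost in 9 of 19 alternatives. Of 41 genes of G2 and mitosis, 3 were called higher (7.32%, beside 2.58% of all genes called higher) and 0 lower (15 and 0 at an unadjusted p under 0.05). In this list 4 differences were negative, with a median of 0.13, beside 50.1% negative and a median of 0.00 over all genes tested. In 19 genes all Ikaros-ERt2 arrays lay above all vector arrays. Over all genes tested the arrays did not overlap in 21.3% in either direction, and in 10.3% with Ikaros-ERt2 lower. Ect2, which organises cytokinesis, read 9.52, 9.38 and 9.47 against 8.89, 8.92 and 9.02 (log2 difference 0.51 ± 0.08, SE, adjusted p = 0.00324). Prc1 (0.39), whose call was lost in 9 of 19 alternatives, and Kif2c (0.31) of the spindle were the others. Instead of 3, there was 1 on leaving out vector-ERt2 replicate 2 or Ikaros-ERt2 6 h replicate 1, and there were 5 on leaving out Ikaros-ERt2 6 h replicate 3 or Ikaros-ERt2 2 h replicate 2, and 10 after quantile normalization of all arrays.

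Transcription factors of lymphoid cells moved both ways: of 55 tested, 8 were higher and 10 lower (32.7% called, beside 5.78% of all genes). The highest log2 difference of the list, 1.32, belonged to a gene not called. Foxo1, which activates genes of small pre-B cells, read 8.93, 8.63 and 8.74 in Ikaros-ERt2 cells and 7.75, 7.89 and 8.10 in vector cells (1.8-fold higher, log2 difference 0.85 ± 0.12, SE, adjusted p = 0.00201). Rel, an NF-kappa B subunit, read 7.89, 7.60 and 7.57 against 6.85, 6.88 and 6.78 (log2 difference 0.85 ± 0.09, SE, adjusted p = 0.000473). Hivep2 (0.78) was higher, as were Hhex (0.76) and Irf1 (0.59), which were chosen after their values were seen. Bcl11a, a zinc-finger repressor of early lymphoid cells, read 7.66, 7.71 and 7.53 against 8.54, 8.41 and 8.49, and both groups were tight (log2 difference -0.85 ± 0.07, SE, adjusted p = 0.00021). Lef1 (-0.84), the partner of beta-catenin, was lower, as was Irf4 (-0.69), whose Ikaros-ERt2 mean of 5.06 lay below the level for testing of 5.1, and Runx1 (-0.71), chosen after its value was seen. Pax5 (log2 difference 0.04, adjusted p = 0.848) and Ebf1 (0.32, adjusted p = 0.128) were not called. The 8 rises became 4 when replicate 1 of either 6 h group was left out and 5 when vector-ERt2 replicate 2 was.

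Recombination and end joining had 2 genes higher and 1 lower of 19 tested (15.8% called, beside 5.78% of all genes). Lig4, the ligase that seals DNA breaks by end joining and so completes the joints of immunoglobulin gene rearrangement, read 9.14, 8.99 and 9.21 against 8.03, 7.52 and 7.95. The groups lay apart by more than their ranges, at a 2.43-fold higher level (log2 difference 1.28 ± 0.16, SE, adjusted p = 0.00133). Xrcc4 (0.51), the partner of this ligase, was called higher in 14 of 19 alternatives. Nbn (-0.42) was called lower, while its second probe set gave a difference of 0.01. The higher genes numbered 1 when Ikaros-ERt2 6 h replicate 1 or any vector-ERt2 array was left out.

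Receptors gave the largest called rise other than that of Ikzf1, and the largest called fall. P2ry10, a purinergic-type receptor of lymphocytes, read 6.76, 6.80 and 6.63 in Ikaros-ERt2 cells and 4.90, 4.88 and 5.36 in vector cells, and was 3.2-fold higher (log2 difference 1.68 ± 0.13, SE, adjusted p = 0.00012). Its vector mean lay just below the level for testing. Ccr2, a chemokine receptor best known from monocytes, read 5.34, 5.71 and 4.88 against 7.81, 6.81 and 7.12 and had the largest fall (3.83-fold, log2 difference -1.94 ± 0.24, SE, adjusted p = 0.00128). No myeloid marker other than Ccr2 was called among the 5 tested of 21. Cd93, a receptor of immature B cells, read 9.46, 9.92 and 9.85 against 10.80, 10.85 and 10.85 (2.13-fold lower, adjusted p = 0.000701). Thbd, thrombomodulin, lay at 7.39, 7.81 and 7.54 against 8.76, 8.50 and 8.79 (2.15-fold lower, adjusted p = 0.000575). Spn, the sialoglycoprotein CD43 of early B cells, lay at 6.28, 6.40 and 6.27 against 7.51, 7.26 and 7.48 (2.14-fold lower, adjusted p = 0.00026). Of 21 tested surface markers of B-cell stages, 3 were lower, Spn, Cd93 and Il2ra (-0.75), and 0 higher by limma (4 and 0 at an unadjusted p under 0.05). The 3 are 14.3% of the list, beside 3.2% of all genes called lower.

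Integrins and adhesion genes had 4 higher and 3 lower of 28 (25.0% called, beside 5.78% of all genes). Itga6, the laminin-binding alpha6 integrin, read 7.68, 7.50 and 7.40 against 6.54, 6.83 and 6.60 (log2 difference 0.87 ± 0.12, SE, adjusted p = 0.00211). Ptk2b (0.48), a kinase of adhesion signalling, was higher, and so were Icam1 (0.46) and Icam2 (0.40), ligands of the integrin LFA-1 chosen after their values were seen. Itga4 (-0.59), the alpha4 integrin, and the hyaluronan receptor gene Cd44 (-0.47) were lower beside Spn. The 4 were 2 without vector-ERt2 replicate 3.

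Feedback genes of the ERK kinase pathway, among them dual-specificity phosphatases that switch off MAP kinases, were 6 lower and 1 higher of 40. Together these calls are 17.5% of the list, beside 5.78% of all genes called. Dusp7 read 7.21, 6.80 and 6.51 against 8.01, 8.19 and 7.98 (2.34-fold lower, log2 difference -1.22 ± 0.14, SE, adjusted p = 0.00081). The Ikaros-ERt2 arrays were spread more widely than the vector arrays without reaching them. Ier3, an immediate early gene, read 5.60, 5.11 and 5.72 against 6.49, 6.54 and 6.44 (log2 difference -1.01 ± 0.16, SE, adjusted p = 0.00346). Spry1 (-0.68), an inhibitor of receptor signals, was also lower, as were Ier2 (-0.66) and Dusp4 (-0.60), chosen after their values were seen. Dusp12 differed by -0.78 in 1 probe set and by 0.01 in its other. Dusp5, a nuclear phosphatase of ERK, was higher, at 8.76, 8.40 and 8.72 against 7.77, 7.79 and 7.97 (log2 difference 0.78 ± 0.12, SE, adjusted p = 0.00314).

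Other genes had changes as large but lie in none of these lists. Endod1, an endonuclease-domain gene, read 7.64, 7.81 and 7.62 against 9.56, 9.63 and 9.59 and was 3.74-fold lower (adjusted p = 1.13e-05). Both groups were tight, and the distance between them was many times their spread. Slc22a8, an organic anion transporter, read 6.98, 7.54 and 6.70 against 8.81, 8.90 and 8.52 (3.18-fold lower, adjusted p = 0.00056). Fam43a read 7.57, 7.64 and 7.51 against 8.95, 8.95 and 8.85 and was 2.53-fold lower with little spread (adjusted p = 3.01e-06). Gfra2, a receptor of neurturin, was 2.72-fold lower, 2900026A02Rik 3.04-fold, Gm10384 2.3-fold and Inka1 2.2-fold.

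Of the remaining large rises, Trp53inp1, a stress-response gene, read 9.11, 8.69 and 8.49 against 7.74, 7.78 and 7.42 (2.17-fold higher, adjusted p = 0.00732). Of 22 tested p53 target genes it was the 1 called (4.55%, near the 5.78% of all genes called). Rhoq, a small GTPase, read 6.29, 6.06 and 5.94 against 4.88, 5.12 and 4.77 (2.26-fold higher, adjusted p = 0.000776), from a vector mean of 4.92 that lay below the level for testing. Pde7a, a cyclic AMP phosphodiesterase, read 10.06, 10.00 and 9.97 against 9.08, 9.05 and 9.05 (1.93-fold higher, adjusted p = 8.01e-05). Sdc4, a heparan sulfate proteoglycan, read 11.91, 11.76 and 11.78 against 10.99, 10.94 and 10.97 (1.81-fold higher, adjusted p = 0.00012). In both genes the arrays of a group differed by far less than the groups did. Plch1 (log2 difference 0.91), Ranbp9 (0.87), Tedc1 (0.86) and Rgs2 (0.86), a regulator of G-protein signalling whose call was lost in 8 of 19 alternatives, complete the largest called rises.

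**Figure D4:**
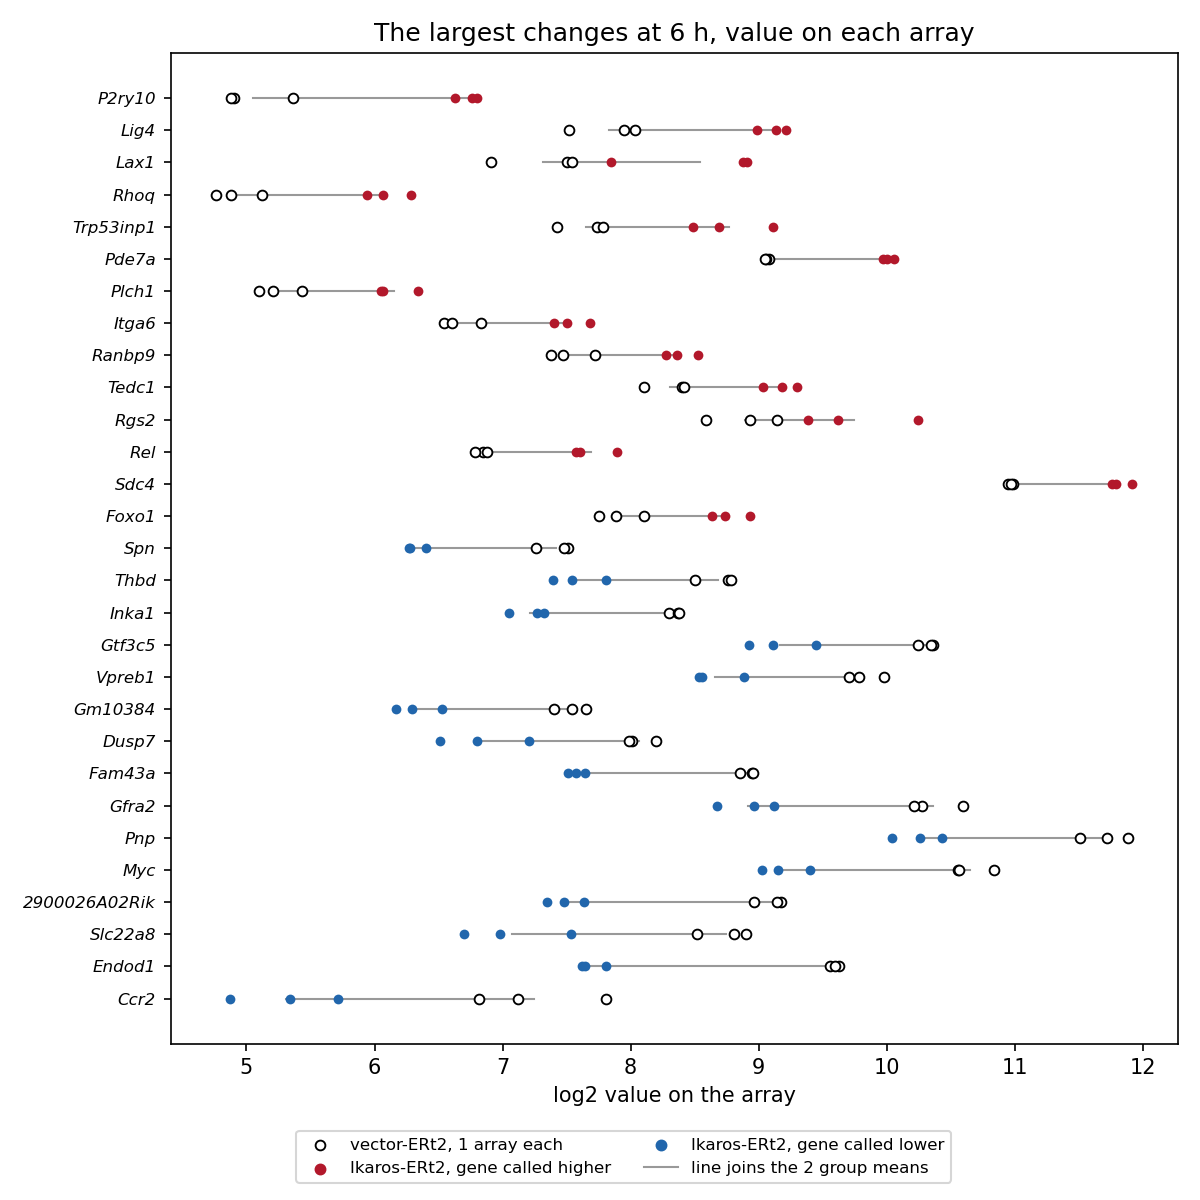
Values on each array (x axis, log2) of the genes with the largest called changes (y axis), Ikzf1 left out for its scale. Open circles are the 3 vector-ERt2 arrays, filled circles the 3 Ikaros-ERt2 arrays (red for higher, blue for lower), and a line joins the group means. The genes were taken from called genes in which the 2 groups do not overlap, which held for all 692 called.

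The lists of stress, metabolic and chromatin genes are read beside 5.78% of all genes called. Of 29 cytosolic chaperone genes limma called 0 (3 higher and 1 lower at an unadjusted p under 0.05). It also called 0 of 26 histone genes and of 22 housekeeping genes (each 1 higher and 1 lower at an unadjusted p under 0.05), and 0 of 12 Kruppel-like factor genes (2 higher). Of 26 genes of the NuRD complex and other partners of Ikaros, Smarca4 (0.37), the ATPase of the BAF complex, was called higher, and in 8 of 19 alternatives. Of 26 genes of the low-oxygen response, Hif1a (0.44) and Narf (0.37) were higher and Car9 (-0.34) lower, which is 11.5% of the list. The call of Car9 was lost in 10 of 19 alternatives. Of 46 lysosome and autophagy genes, Tfeb (0.63), the main activator of lysosome genes, and Sqstm1 (0.34) were higher. In both of these lists the pair of higher genes became 1 without Ikaros-ERt2 6 h replicate 1 or vector-ERt2 replicate 2. The same held in the low-oxygen list without vector-ERt2 replicate 1, and in the lysosome list without Ikaros-ERt2 6 h replicate 2 or vector-ERt2 replicate 3. Elovl6 (-0.80), a fatty acid elongase, was the 1 of 37 sterol and fatty acid genes called lower, and Hmgcs1 (0.46) the 1 called higher, a call lost in 9 of 19 alternatives.

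The same Ikaros-ERt2 line was measured after 2 h, and the 6 h arrays were tested against the 2 h arrays directly, where 108 genes were called (0.903%). The differences from vector at 2 h and at 6 h share the vector arrays, so their values are set side by side here. For Myc the log2 difference was -1.32 at 2 h and -1.46 at 6 h (6 h against 2 h: -0.14, adjusted p = 0.765). Lig4 (1.34 and 1.28), P2ry10 (1.52 and 1.68), Jak1 (-0.63 and -0.65) and Gm10384 (-1.27 and -1.20) gave no call between the times either. For ribosome assembly genes the list's median was -0.04 at 2 h and -0.33 at 6 h, and 15 of the 101 were called between the times. Rrs1 went from -0.04 at 2 h to -0.85 at 6 h (6 h against 2 h: -0.82, adjusted p = 0.0213). Gnl3 went from -0.09 to -0.73 (adjusted p = 0.024), and Dkc1 from -0.07 to -0.69 (adjusted p = 0.037). Small nucleolar RNAs had a median of -0.14 at 2 h and -0.48 at 6 h, and 3 of 47 were called between the times.

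The surrogate light chain also differed between the times. Igll1 went from -0.26 at 2 h to -1.07 at 6 h (adjusted p = 0.0183 between the times) and Vpreb1 from -0.52 to -1.17 (adjusted p = 0.0282). Bcl11a went from -0.25 to -0.85 (adjusted p = 0.00947) and Pnp from -0.39 to -1.46 (adjusted p = 0.00529). Endod1 stood at -0.94 at 2 h and -1.90 at 6 h (adjusted p = 0.00896). Ccng2 stood at -0.01 at 2 h and 0.77 at 6 h (adjusted p = 0.0158), and the amino acid transporter gene Slc43a2 at -0.39 and 0.42 (adjusted p = 0.00282). The count of 108 fell to between 9 and 50 when any 1 array other than Ikaros-ERt2 6 h replicate 2 was left out: 9 without Ikaros-ERt2 2 h replicate 1, 15 without Ikaros-ERt2 2 h replicate 3, 26 without Ikaros-ERt2 6 h replicate 1, 38 without Ikaros-ERt2 6 h replicate 3, 44 without Ikaros-ERt2 2 h replicate 2, and 32, 31 and 50 without vector-ERt2 replicates 1, 2 and 3.

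The 48 h arrays share no sample with the 6 h comparison and differ from it in array type, construct and control (Ikaros against 159A, 2 arrays each), so they were read without a test and by direction. Of the 383 genes lower at 6 h, 348 were measured there, and in 284 (81.6%) both Ikaros arrays lay below both 159A arrays, with 14 (4.02%) above. Of the 309 higher genes, 302 were measured, 190 (62.9%) above and 35 (11.6%) below. Among 8820 genes tested at 6 h and measured at 48 h, 29.9% lay above and 34.1% below. Igll1 read 8.94 and 8.99 with Ikaros and 14.67 and 15.11 with 159A. Polr1b read 4.67 and 4.32 with Ikaros against 8.67 and 8.46 with 159A. Lig4 read 12.04 and 12.87 with Ikaros against 9.30 and 9.67 with 159A, on the same side as at 6 h.

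Some genes lay on opposite sides at the 2 times, and these were chosen after their values were seen at 48 h. Il2ra, the interleukin-2 receptor alpha chain and a marker of small pre-B cells, read 5.14, 5.27 and 4.82 in Ikaros-ERt2 cells and 5.80, 5.85 and 5.85 in vector cells at 6 h. At 48 h it read 9.72 and 8.68 with Ikaros and 2.76 and 2.69 with 159A, close to that table's lowest value of 2.19. At 6 h it was called lower (adjusted p = 0.00193), with an Ikaros-ERt2 mean of 5.08 just below the level for testing, so that it was tested through the vector arrays. At 48 h both Ikaros arrays lay above both 159A arrays. Blnk, 1.92-fold lower at 6 h, read 11.25 and 10.13 with Ikaros and 9.24 and 7.99 with 159A at 48 h. Cd93, also lower at 6 h, read 13.54 and 13.06 with Ikaros against 12.68 and 12.12 with 159A. Ccne2, higher at 6 h in the fit reported and not called in 9 of 19 alternatives, read 6.91 and 8.45 with Ikaros against 10.41 and 10.87 with 159A. Ccr2, which had the largest called fall at 6 h, lay on neither side at 48 h, with 5.30 and 5.24 for Ikaros and 5.24 and 5.24 for 159A. The same value recurs in both groups, and whether this probe set reads above background at 48 h was not tested.

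**Figure D5:**
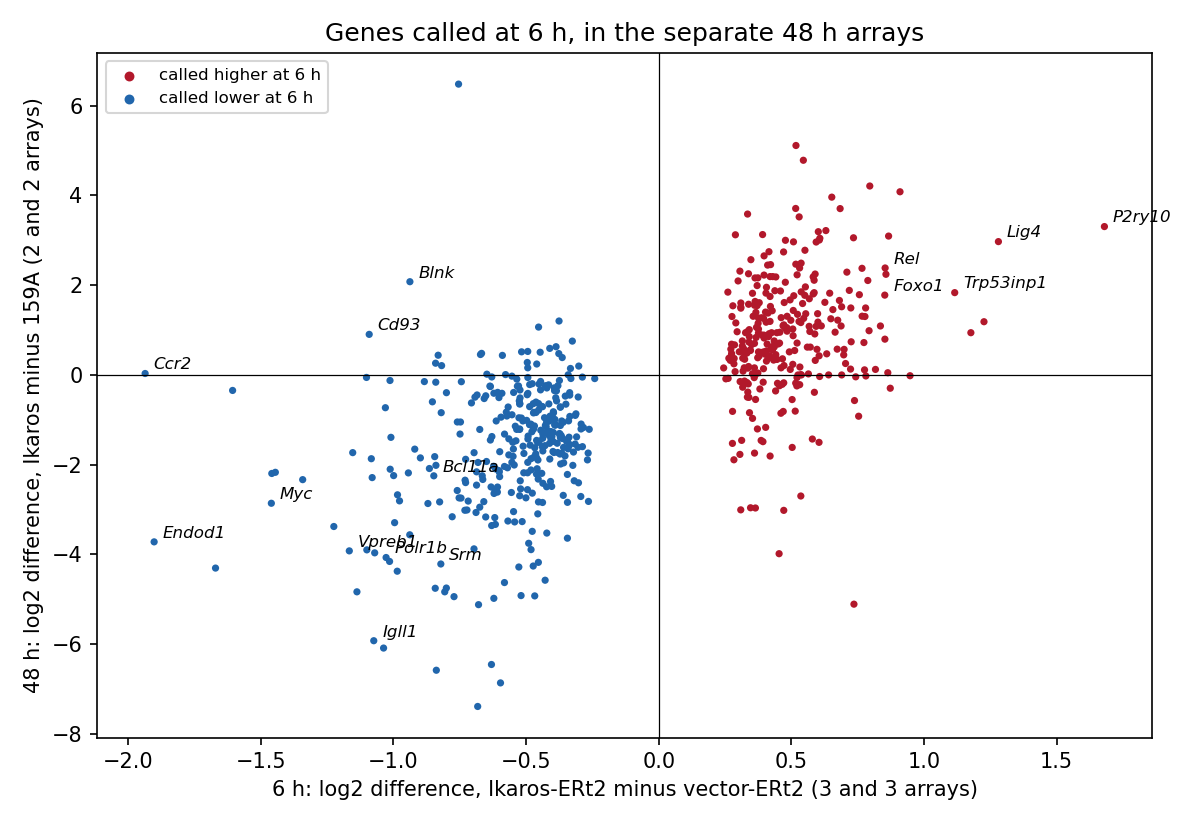
Each point is a gene called at 6 h, red for higher and blue for lower, with its log2 difference at 6 h on the x axis (Ikaros-ERt2 minus vector-ERt2, 3 and 3 arrays) and at 48 h on the y axis (Ikaros minus 159A, 2 and 2 arrays), Ikzf1 left out. Of 348 genes called lower, 284 have both Ikaros arrays below both 159A arrays at 48 h, and Blnk (2.08) and Cd93 (0.90) lie above 0.

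The letters TGGGAA, a common core of Ikaros binding elements that contains GGGAA, were searched on both strands in the 250 bases before each gene's start (RefSeq, GRCm38.p6). They occurred in 29.7% of the 306 genes called lower that have an entry, in 16.6% of the 247 called higher, in 20.1% of all genes tested and in 21.5% of the 27025 promoters of the table. For the shorter GGGAA, the shares were 64.4%, 55.5%, 58.5% and 55.9%. For CACGTG, the letters bound by Myc, they were 8.5%, 7.69%, 8.48% and 6.05%. In the ribosome assembly list, TGGGAA was in 23.8% and CACGTG in 7.14% of 84 entries. A match is a description of the sequence and not a site of binding. Of the 15 largest falls, every gene with an entry lacked TGGGAA. These are Ccr2, Slc22a8, 2900026A02Rik, Pnp, Fam43a, Dusp7, Vpreb1, Gtf3c5, Inka1 and Spn. Among the 15 largest rises with an entry, Plch1 alone held it. Shown here are 4 genes called lower whose windows hold TGGGAA on either strand, from surrogate light chain (Vpreb2), RNA polymerase I (Polr1b) and transcription factor (Bcl11a) genes, with Tifab (log2 difference -1.07), chosen after its value was seen for its 3 copies. Capitals mark TGGGAA or its reverse complement, and each sequence runs 5′ to 3′ on the gene's strand. The windows are chr16:17980315-17980564 on the + strand for Vpreb2, chr2:129100746-129100995 on the + strand for Polr1b, chr11:24080445-24080694 on the + strand for Bcl11a and chr13:56178886-56179135 on the - strand for Tifab.
Vpreb2: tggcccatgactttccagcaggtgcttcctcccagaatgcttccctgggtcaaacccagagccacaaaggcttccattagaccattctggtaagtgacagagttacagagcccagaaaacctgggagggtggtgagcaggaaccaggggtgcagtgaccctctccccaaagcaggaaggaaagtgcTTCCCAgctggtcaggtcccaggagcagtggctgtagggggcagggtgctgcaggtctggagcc
Polr1b: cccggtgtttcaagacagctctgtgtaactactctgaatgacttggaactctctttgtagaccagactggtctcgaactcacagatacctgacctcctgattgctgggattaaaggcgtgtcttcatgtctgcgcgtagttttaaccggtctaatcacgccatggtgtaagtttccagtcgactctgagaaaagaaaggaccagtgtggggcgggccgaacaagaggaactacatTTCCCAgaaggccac
Bcl11a: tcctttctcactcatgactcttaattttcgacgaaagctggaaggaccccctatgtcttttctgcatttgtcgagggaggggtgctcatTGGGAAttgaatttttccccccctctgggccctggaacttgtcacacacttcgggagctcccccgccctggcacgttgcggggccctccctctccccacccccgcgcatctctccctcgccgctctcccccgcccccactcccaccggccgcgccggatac
Tifab: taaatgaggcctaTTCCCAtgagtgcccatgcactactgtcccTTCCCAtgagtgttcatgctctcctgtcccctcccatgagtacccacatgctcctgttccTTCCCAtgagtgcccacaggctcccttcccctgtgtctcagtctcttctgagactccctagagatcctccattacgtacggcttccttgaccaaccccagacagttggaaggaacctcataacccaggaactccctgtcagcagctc
The motif begins 64 bases before the start of Vpreb2, 15 before that of Polr1b and 161 before that of Bcl11a, and in Tifab 237, 207 and 147 bases before it.

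Of 291 microRNA genes on the array, 91 were tested, and Mir18 was the 1 called, lower, beside 5.78% of all genes called. It read 4.89, 5.25 and 4.31 in Ikaros-ERt2 cells and 6.06, 5.88 and 5.72 in vector cells, so that the Ikaros-ERt2 mean lay below the level for testing (log2 difference -1.07 ± 0.19, SE, adjusted p = 0.00801). Mir18 lies in the miR-17-92 cluster, whose host transcript Mir17hg differed by -0.27 (adjusted p = 0.187). Its neighbours Mir17 (difference of means -0.10), Mir19a (-0.52), Mir20a (-0.42) and Mir19b-1 (-0.22) were too low to be tested. All of them were chosen after their values were seen. Whether probe sets of such short genes read the host transcript was not tested. The mature RNAs of 4 members are shown because their seeds, bases 2 to 8 and here in capitals, set which messages they bind (RefSeq, GRCm38.p6).
mmu-miR-17-5p: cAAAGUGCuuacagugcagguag
mmu-miR-18a-5p: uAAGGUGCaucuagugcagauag
mmu-miR-19a-3p: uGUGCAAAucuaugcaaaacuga
mmu-miR-20a-5p: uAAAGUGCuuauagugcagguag
The seed AAAGUGC is shared by miR-17 and miR-20a, while miR-18a and miR-19a each have their own.

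Called genes that neighbour each other mostly moved in the same direction. Neighbours here are tested genes in order along a chromosome, with genes not tested skipped and no limit on distance. Among 11934 such pairs, both were called in 59 pairs, 22 both higher, 26 both lower and 11 in opposite directions. Thus 81.4% of these called pairs had the same direction, beside 52.1% of all neighbouring pairs with the same sign. Without small nucleolar RNAs and overlapping genes, 42 of 51 pairs had the same direction. A called gene was followed by a called gene in 8.54% of 691 cases, beside 5.78% of genes called. Igll1 and Vpreb1 are such a pair, as are Thbd and Cd93, Dok2 and Gfra2, Gtf3c5 and Gfi1b (-0.62), P2ry10 and P2ry10b (0.71, a call lost in 8 of 19 alternatives), Maml3 (0.82) and Foxo1, Kdm7a (0.72) and Slc37a3 (0.80), and Il2ra and Il15ra (-0.50). Polr1a and St3gal5 (-1.08), a sialyltransferase gene, are another. Those not named above were chosen after their values were seen.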

How the data were processed

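RNA was measured on Affymetrix arrays. The authors deposited log2 values for each probe set of the Gene 1.0 ST arrays, and likewise for the 48 h arrays, which are of the older 3' type. Per the submitters' processing notes, affy, limma, RMA and GCRMA were used, without saying which was used for which array type, so the background correction behind the log2 values is not given in the sources used here. RMA-type summaries compress folds of low genes.

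Of the Gene 1.0 ST probe sets, 21789 carry 1 symbol, 1621 several and 12146 none, and those with several or none were left out. Where a gene had several probe sets (999 genes), the brightest on average was kept. The lowest 40% of genes by mean (below 5.1 log2 units) were not tested, which left 11963. A linear model with group means was fitted to all 9 arrays of this type in limma 3.58.1 (R 4.3.3, lmFit and eBayes), with no covariate. Ikaros-ERt2 minus vector-ERt2 was tested two-sided with Benjamini-Hochberg adjustment over all genes tested, and a gene was called at an adjusted p under 0.05. Counts and sums used Python 3.11.15 and pandas 2.3.3. On simulated data, log2 differences of 0.5 were recovered in 71.6% of 109 genes and of 1 in 97.8% of 91 genes. The simulation drew independent normal values with the same spread for a gene on every array. The real arrays had weights from 0.394 to 4.96, so these rates may not hold for them. The precision is limited by 3 arrays per group.

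Of 46 gene lists, 1314 different genes were tested. The members and lists were chosen with earlier results of these data known. Named genes are Ikzf1 and the 15 largest rises and 15 largest falls among called genes whose groups do not overlap. Also named are up to 5 called genes of each list by size of change, or, without a call, the 2 lowest p-values. Others are marked as chosen after their values were seen. In called genes with several probe sets (42), all others had the same sign in 38, and at least 1 had the opposite sign in 4 (C330007P06Rik, Dusp12, Nbn and P2rx3). Alternatives covered the filter, normalization, probe set rule, eBayes settings, array weights, arrays in the fit, replicate block and leaving out each array.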

Additional observations from a re-analysis of the deposited data

Results flagged for a closer look

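Of 142 named genes called at 6 h, 24 were called in the test of 6 h against 2 h (limma, adjusted p under 0.05). Over all genes tested, 0.903% were called between the times. The named genes were picked by their values on the 6 h arrays. The Ikaros-ERt2 arrays among these also enter this test, so the selection itself favours such calls. Values are 6 h minus 2 h on the log2 scale. The surrogate light chain genes moved further down, Igll1 by -0.81, Vpreb1 by -0.65 and Vpreb2 by -0.59. Among genes of ribosome assembly, Rrs1 changed by -0.82, Gnl3 by -0.64, Dkc1 by -0.61, Grwd1 by -0.58, Nop58 by -0.49, Nolc1 by -0.46 and Nat10 by -0.46. Polr1b changed by -0.43, the snoRNA host gene Snhg16 by -0.43, Snora33 by -0.44 and the mitochondrial ribosomal protein gene Mrpl24 by -0.43. Pnp changed by -1.07, Endod1 by -0.96, Bcl11a by -0.59, Shmt1 by -0.46 and Dusp12 by -0.35. Changes upward were 0.81 in Slc43a2, 0.78 in Ccng2, 0.68 in Hmgcs1, 0.48 in Rb1 and 0.41 in Narf. No vector array at 2 h was analysed here, so time in culture with 4-hydroxytamoxifen cannot be told apart from the time of Ikaros activity.

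Probe sets outside the gene-level comparison also carried calls in a fit of all probe sets. Of 6153 tested probe sets with no gene symbol, 38 were called (0.618%, 12 higher and 26 lower). Of 908 with several symbols, 11 were called (1.21%), beside 343 of 14273 with 1 symbol (2.4%).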

How the results depend on the processing

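The 692 calls numbered 480 when only the 6 arrays entered the fit, 537 with no filter on low genes and 860 after quantile normalization. Of the 692, 458, 534 and 688 were shared with these fits. Array weights gave 2570 calls, 1397 higher and 1173 lower, and shared 690. These weights were 4.96 for Ikaros-ERt2 6 h replicate 1 and 0.394 for replicate 3. With the 6 arrays alone, 194 genes were higher. The 108 calls between 6 h and 2 h became 59 with no filter and 2060 with array weights. Leaving out 1 array gave 335 to 714 calls, 125 to 362 higher, 207 to 441 lower, and 9 to 149 between 6 h and 2 h. The cause was not tested. With the replicate number as a block, 673 genes were called, 585 of them shared. Same-numbered arrays of the 2 groups at 6 h deviated together little (r = -0.00353, -0.0958 and 0.106), so the number was not used to pair samples. Of 142 named genes called, 91 were called in all 19 alternatives and 0 changed sign in any. Of named genes not called, the log2 difference of Prf1 was -0.0272 to 0.1387 and of Cd24a -0.0434 to 0.0877 when single Ikaros-ERt2 6 h arrays were left out. With array weights Cd24a was at -0.0466 and Pax5 at -0.0011. The values below 0 (without replicate 1 for Prf1 and replicate 2 for Cd24a) are opposite in sign to the values of the fit reported. The filter leaves genes near background untested, and array signal near it limits what can be measured for Rag1, Rag2 and most microRNA genes.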

Other observations

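Notch and antigen presentation genes moved in single members. Of 22 tested Notch receptor and target genes, Maml3 (log2 difference 0.82), a coactivator of Notch, and the repressor gene Hes1 were called higher, and Il2ra (-0.75) and Lfng, which modifies Notch receptors, lower. Together these calls are 18.2% of the list, beside 5.78% of all genes called. The call of Lfng was lost in 9 of 19 alternatives, and the Ikaros-ERt2 mean of Il2ra (5.08) lay below the level for testing. Each of these pairs became 1 when single arrays were left out: the higher pair without Ikaros-ERt2 6 h replicate 1, vector-ERt2 replicate 1 or vector-ERt2 replicate 3, and the lower pair without Ikaros-ERt2 2 h replicate 1 or 3, Ikaros-ERt2 6 h replicate 1 or 2, or vector-ERt2 replicate 2 or 3. Of 11 MHC class II genes, Ifi30, a lysosomal thiol reductase, was the 1 called, higher (9.09%, beside 5.78% of all genes called).

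Slc7a3, a transporter of cationic amino acids, was called higher at 6 h (log2 difference 0.74), a call lost in 9 of 19 alternatives. At 48 h it read 3.03 and 2.66 with Ikaros, near that table's lowest value of 2.19, and 7.99 and 7.91 with 159A.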
